A study of Mus musculus with 2 samples.

Results

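The genes described here are 10 members of the BCL2 family, found by symbol among the 24984 gene symbols of the count tables, and all 10 had an entry in both libraries. They comprise 4 survival genes (Bcl2, Bcl2l1, Mcl1 and Bcl2a1b), 2 effector genes (Bax and Bak1) and 4 BH3-only genes (Bid, Bcl2l11, Bbc3 and Pmaip1). Mononuclear cells of hind limb muscle from mdx mice, which lack dystrophin and go through repeated rounds of fibre damage and repair, were profiled by droplet single-cell RNA-seq in 2 libraries, 1 per genotype. Mice of both groups carried Pax7-CreERT2 and R26YFP on the mdx background, and Yy1 was intact in Ctrl (Yy1 +/+) and floxed in dKO (Yy1 f/f). Tamoxifen was given for 5 days from 1.5 months of age and muscles were collected 1 month later, with cells of 3 mice pooled in each library, red cells lysed and live cells sorted. The Cre is driven by Pax7, so that Yy1, a transcription factor, is removed in muscle stem cells (MuSCs) and their descendants, whereas fibro-adipogenic progenitors (FAPs), monocytes and macrophages (MO/MP) and the other cells of the muscle keep it. The comparison of dKO with Ctrl therefore asks how the survival and death genes stand in niche cells beside Yy1-deleted MuSCs, and in the MuSCs themselves. With 1 library per genotype no test between genotypes is possible, and what belongs to the genotype and what to the pool or the library cannot be told apart.

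The BCL2 family sets the threshold of the mitochondrial pathway of apoptosis. The survival proteins hold back the effectors BAX and BAK, which otherwise form pores in the outer mitochondrial membrane and release cytochrome c. The BH3-only proteins are the sensors: they bind the survival proteins through a short helix, the BH3 domain, and some of them also activate the effectors directly. BIM (encoded by Bcl2l11) responds to loss of growth factors and cytokines, PUMA (Bbc3) and NOXA (Pmaip1) are targets of p53, and BID is activated by cleavage downstream of death receptors. Removal of surplus inflammatory cells and FAPs by apoptosis is part of normal muscle repair.

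The BH3 core is the feature that members of all 3 roles share. Its coding sequence is shown here because BH3-only proteins bind the survival proteins through the BH3 domain. The longest complete coding sequence of each gene in GENCODE M21 (GRCm38, the build named in the labels as mm10) was searched for a leucine codon followed, after 3 codons, by a glycine or alanine codon and an aspartate codon, and 8 of the 10 members had exactly 1 match. Each line gives 39 bases, 5′ to 3′ on the coding strand and within a single exon, with the leucine, glycine or alanine, and aspartate codons in capitals.
Bcl2: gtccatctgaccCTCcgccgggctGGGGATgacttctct
Bcl2l1: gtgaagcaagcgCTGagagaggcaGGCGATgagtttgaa
Mcl1: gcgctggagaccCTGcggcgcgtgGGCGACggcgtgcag
Bax: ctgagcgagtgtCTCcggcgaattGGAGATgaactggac
Bak1: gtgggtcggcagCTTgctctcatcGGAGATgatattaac
Bid: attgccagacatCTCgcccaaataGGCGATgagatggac
Bcl2l11: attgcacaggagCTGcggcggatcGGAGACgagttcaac
Bbc3: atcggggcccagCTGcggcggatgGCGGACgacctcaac
On GRCm38 the stretches lie at chr1:106712575-106712613 (minus strand) for Bcl2, chr2:152829697-152829735 (minus) for Bcl2l1, chr3:95659424-95659462 (plus) for Mcl1, chr7:45465997-45466035 (minus) for Bax, chr17:27022531-27022569 (minus) for Bak1, chr6:120897289-120897327 (minus) for Bid, chr2:128147138-128147176 (plus) for Bcl2l11 and chr7:16313761-16313799 (plus) for Bbc3, all of them in coding exons. Bbc3 is the only one of the 8 with an alanine codon in the place of the glycine codon. Bcl2a1b had no match to this pattern and Pmaip1 had 2, so no stretch is printed for them.

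The kept data were 4010 Ctrl and 3079 dKO cells with median depths of 7807 and 7852 UMIs (unique molecular identifiers, each counting 1 captured transcript), and the libraries shared 7 cell barcodes. Cells fell into 24 clusters, which were named after fixed marker lists with the ending "-like", and 13 groups held at least 30 cells in each library. For every group and library the UMIs of a gene were summed over cells and scaled to the total UMIs of that group (CPM, the usual unit of summed single-cell counts), with an exact Poisson interval, and dKO was set against Ctrl as a ratio with an exact binomial interval. All intervals are at 95% and cover counting error only, not differences between mice. A ratio of at least 1.5 either way in a gene with at least 100 UMIs over both libraries is called a change below. In MuSC-like cells Yy1 had 402 UMIs in 123 Ctrl cells and 3 UMIs in 30 dKO cells, 162 and 3.91 CPM (ratio 0.0241, interval 0.00495 to 0.0709), while in the other 12 groups its ratio lay between 0.683 (T cell-like) and 1.28 (dendritic cell-like).

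Of the survival genes, Mcl1 was measured in all 13 groups, Bcl2 was highest in lymphocytes, and Bcl2a1b was close to absent outside leukocytes. Mcl1, a short-lived survival protein that many blood cells depend on, was highest in neutrophil-like cells where Ctrl had 1475 CPM (1347 to 1613) and dKO 2188 CPM (1910 to 2496). Next were a cluster led by Cd209f, Fcna and Cd163, which the marker rule left without a name (1087 and 1310 CPM), and the MO/MP-like cells, where Ctrl had 961 and dKO 1269 CPM. The lowest levels were 221 and 227 CPM in cycling FAP-like cells, 230 and 155 CPM in MuSC-like cells, and 296 and 335 CPM in FAP-like cells. The intervals of MO/MP-like and neutrophil-like cells lay above those of FAP-like and MuSC-like cells in either library, whereas T cell-like cells (466 and 483 CPM) overlapped tenocyte-like cells (457 and 449 CPM).

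Bcl2, the founding survival gene of the family and a known support of resting lymphocytes, reached 156 CPM (Ctrl, 120 to 200) and 119 CPM (dKO, 89.8 to 154) in T cell-like cells and 82.3 and 58.0 CPM in B cell-like cells. Tenocyte-like cells came next at 37.2 and 32.7 CPM, and the remaining groups lay at 0 to 21.8 CPM, where FAP-like cells (15.4 and 12.3 CPM) stood above MO/MP-like cells (7.91 and 6.39 CPM) without overlap of the intervals. Neutrophil-like cells had 1 and 0 UMIs, which is under the floor of 3 UMIs used here for a detectable gene. Bcl2l1, which encodes BCL-XL, had another distribution, with its highest levels in neutrophil-like (94.5 and 148 CPM), endothelial (EC-like; 63.8 and 63.7 CPM), smooth muscle cell/pericyte-like (60.5 and 46.4 CPM) and MO/MP-like cells (46.6 and 64.6 CPM) and in the Cd209f cluster (52.6 and 63.7 CPM). B cell-like cells had 1 and 3 UMIs. Over the 26 points of 13 groups in 2 libraries, Bcl2 and Bcl2l1 had a Pearson r of -0.46 on log2(CPM + 10), the lowest of the 45 pairs of members. Points of 1 library share its sequencing and the groups differ in depth, so this r is a description only.

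Bcl2a1b, an A1 gene known from the haematopoietic lineage, had 387 and 385 CPM in MO/MP-like, 332 and 446 CPM in dendritic cell-like, 237 and 331 CPM in T cell-like and 167 and 178 CPM in B cell-like cells. In the 6 groups that are not leukocytes it lay between 0 and 11.1 CPM. At an equal depth of 2000 UMIs per cell, 40.3% of Ctrl (37.4 to 43.2) and 35.5% of dKO MO/MP-like cells had a UMI of Bcl2a1b, against 0.394% and 0.552% of FAP-like cells and 0 of 132 and 0 of 80 tenocyte-like cells, which as stromal cells should lack the gene. Without thinning the shares were 67.2% and 58.2% of MO/MP-like and 2.68% and 1.31% of FAP-like cells, at median depths of 8447 and 7237 UMIs and of 11742 and 11872 UMIs. MO/MP-like cells held 82.0% of all Bcl2a1b UMIs in Ctrl and 76.9% in dKO, with 31.2% and 31.8% of the cells.

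**Figure D1:**
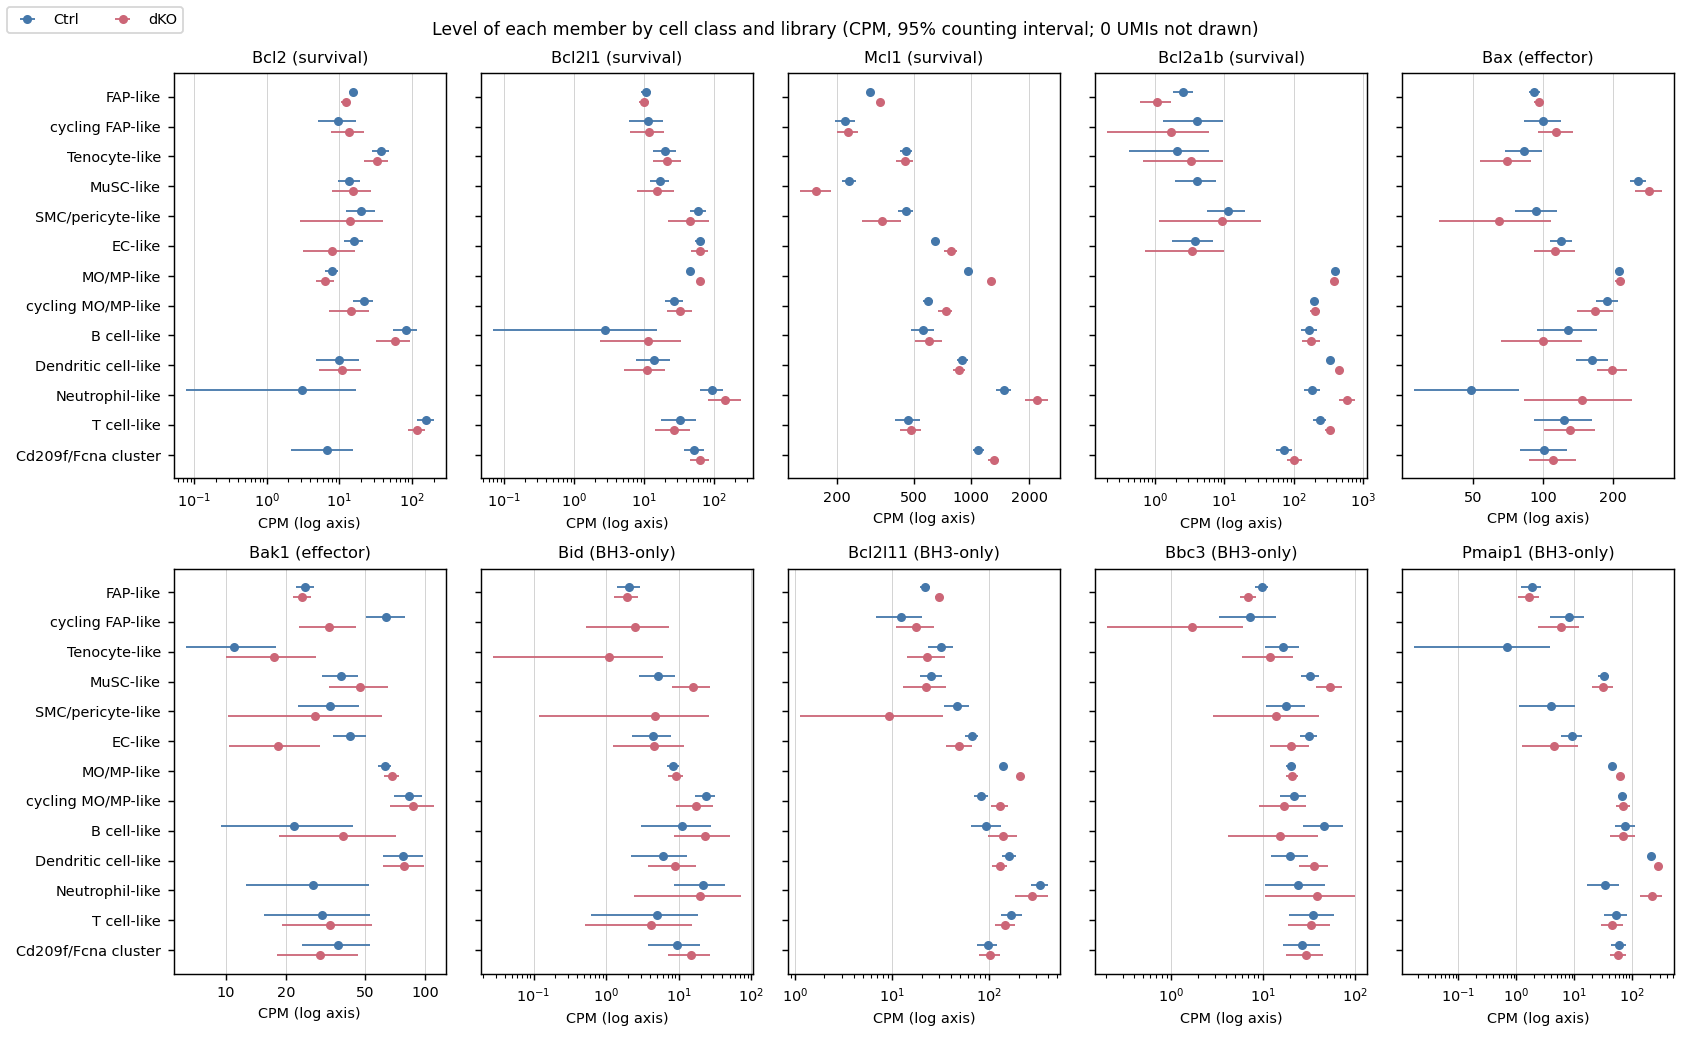
Level of each member in CPM (log axis, its range differing between panels) in the 13 cell groups, Ctrl in blue and dKO in red, with 95% counting intervals. Bcl2 peaked in T cell-like and B cell-like cells, Bcl2a1b was split between leukocytes with the Cd209f cluster (72.8 CPM and above) and other cells (11.1 CPM and below), and Mcl1 and Bcl2l11 were highest in neutrophil-like cells.

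The effector genes were more evenly spread. Bax was highest in MuSC-like cells, with 257 CPM for Ctrl (238 to 278) and 287 CPM for dKO (250 to 327), above MO/MP-like cells with 214 and 216 CPM, and lowest in Ctrl neutrophil-like cells at 48.8 CPM on 16 UMIs. FAP-like cells stood at 91.7 and 96.5 CPM, which their intervals set apart from both MuSC-like and MO/MP-like cells. Bak1 was highest in cycling MO/MP-like (82.3 and 86.2 CPM) and dendritic cell-like cells (77.4 and 78.2 CPM), whose intervals overlapped, and was 25.0 and 24.0 CPM in FAP-like cells. Bak1 overlaps Ggnbp1 on the opposite strand, Bid overlaps Bcl2l13 and Bcl2 overlaps D630008O14Rik in the same way. On the same strand, where strand cannot tell reads apart, Bax overlaps Gm45808, Bcl2a1b Gm29094, Bcl2 Mir3473f and Gm37053, and Bid Gm44260. How reads in such overlaps were counted, and whether the counting used strand, is not given in the sources used here.

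The BH3-only genes each had their own place. Bcl2l11 was highest in neutrophil-like cells, with 329 CPM for Ctrl (270 to 397) and 276 CPM for dKO (183 to 399), and next in Ctrl came T cell-like (169 and 146 CPM), dendritic cell-like (159 and 128 CPM) and MO/MP-like cells (139 and 206 CPM). In dKO the order differed, with MO/MP-like cells next and B cell-like cells (93.3 and 139 CPM) above dendritic cell-like cells, and the intervals of most of these neighbours overlap. Bcl2l11 stayed between 9.28 and 66.0 CPM in the groups that are not leukocytes. Pmaip1 was highest in dendritic cell-like cells in both libraries, with 213 CPM for Ctrl (185 to 244) and 284 CPM for dKO (251 to 321), although the interval of dKO neutrophil-like cells (217 CPM, 136 to 328) overlaps the latter, while FAP-like cells had 27 and 25 UMIs (1.86 and 1.65 CPM) and tenocyte-like cells 1 and 0 UMIs. Dendritic cell-like cells were 2.69% of Ctrl cells and 3.31% of dKO cells but held 18.3% and 26.7% of all Pmaip1 UMIs. Bbc3 was low in all groups, at 32.7 and 53.4 CPM in MuSC-like, 31.9 and 20.5 CPM in EC-like and 9.77 and 6.91 CPM in FAP-like cells. Bid was lower still, with 229 Ctrl and 164 dKO UMIs over all kept cells, and its highest level in a group with over 20 UMIs was 23.4 CPM in Ctrl cycling MO/MP-like cells.

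In FAP-like cells (1081 Ctrl and 1141 dKO) 7 of the 10 members had at least 100 UMIs, and 0 of these 7 changed by 1.5-fold, against 5.7% of the 10223 genes tested in these cells, and the median log2 ratio was -0.06 for the members and -0.06 for all genes. Mcl1 stood at 296 CPM in Ctrl and 335 CPM in dKO (ratio 1.13, interval 1.09 to 1.18), and Bcl2 at 15.4 and 12.3 CPM (ratio 0.799, 0.654 to 0.974). Both intervals exclude 1, in opposite directions.

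The effectors had intervals that include 1 in FAP-like cells, with ratios of 1.05 (0.976 to 1.13) for Bax and 0.960 (0.828 to 1.11) for Bak1, as had Bcl2l1 at 0.921 (0.732 to 1.16). Among the BH3-only genes Bcl2l11 stood at 21.8 and 30.3 CPM (ratio 1.39, 1.2 to 1.61) and Bbc3 at 9.77 and 6.91 CPM (ratio 0.708, 0.545 to 0.917). Bcl2l11 was thus higher and Bbc3 lower in dKO by more than counting error, and both remained short of 1.5-fold. For Bbc3 this depended on the processing: its log2 ratio of -0.50 turned to 0.20 in cells thinned to 2000 UMIs and was -0.64, past 1.5-fold, with a filter of 200 genes and 1000 UMIs. Bid (30 and 29 UMIs), Pmaip1 (27 and 25 UMIs) and Bcl2a1b (37 and 16 UMIs, ratio 0.414, 0.215 to 0.762) had too few UMIs to be called. Summed by role, the survival genes came to 325 and 358 CPM (ratio 1.10, 1.06 to 1.15), the effectors to 117 and 120 CPM (1.03, 0.966 to 1.10) and the BH3-only genes to 35.5 and 40.8 CPM (1.15, 1.02 to 1.29). Mcl1 held 92.4% of the survival sum and Bcl2l11 68.5% of the BH3-only sum, and without them the log2 ratios were -0.30 and -0.39, in place of 0.14 and 0.20. In the same cells MO/MP markers stood at 272 and 331 CPM, MuSC markers at 417 and 541 CPM, neutrophil markers at 95.2 and 64.1 CPM and EC markers at 20.2 and 8.89 CPM, and the cell cycle list had a ratio of 0.704. Their part in the FAP-like ratios was not tested.

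**Figure D2:**
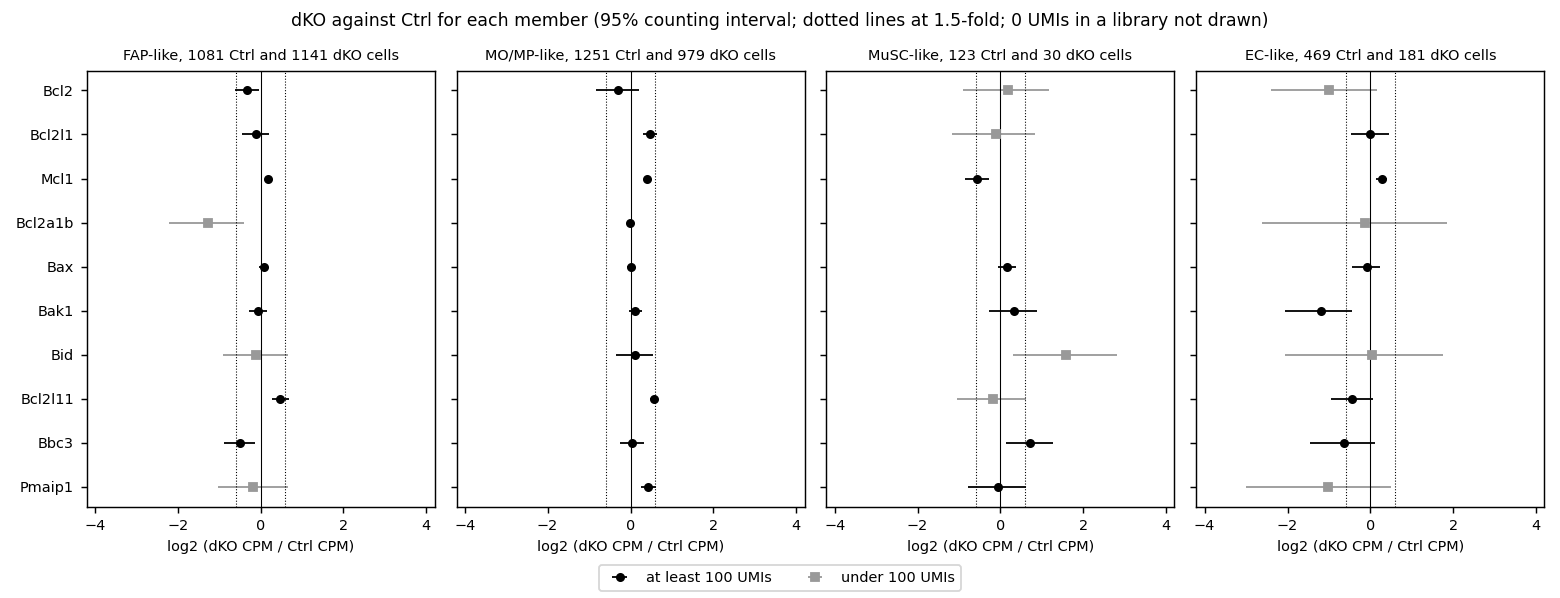
Log2 ratio of dKO to Ctrl CPM for the 10 members in FAP-like, MO/MP-like, MuSC-like and EC-like cells, with 95% counting intervals, black circles for genes with at least 100 UMIs, grey squares for genes below that, and dotted lines at 1.5-fold. No black point lies past the dotted lines in FAP-like and MO/MP-like cells, Bbc3 does in MuSC-like cells, and Bak1 and Bbc3 do in EC-like cells.

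Ratios were also taken within single FAP-like clusters, for which the share of all genes past 1.5-fold is not given. In the cluster led by Cxcl5, Il1rl1 and Inhba (242 Ctrl and 284 dKO cells), genes of activated FAPs, Bcl2l11 rose from 16.2 to 26.4 CPM (ratio 1.63, 1.247 to 2.14) and Bbc3 stood at 10.2 and 4.06 CPM on 56 and 24 UMIs (ratio 0.398, 0.236 to 0.653), too few to be called. In the largest cluster, led by Inmt, C7 and Penk (706 and 699 cells), the ratios were 1.29 (1.06 to 1.56) for Bcl2l11 and 1.03 (0.734 to 1.46) for Bbc3. In the cluster led by Efhd1, Smpd3 and Sbsn, which also carries Pi16 and Dpp4, Bbc3 had 15 and 10 UMIs (ratio 0.475, 0.191 to 1.13). The Bbc3 intervals of the Cxcl5 and Inmt clusters do not overlap, and those of Bcl2l11 do. These 2 clusters differ in median depth (21646 and 10375 UMIs). Bbc3 in FAP-like cells as a whole turned direction when cells were thinned, and no thinned ratios are given for the clusters. A difference between the clusters was thus not shown for Bcl2l11, nor for Bbc3. Bcl2 was highest in the Inmt cluster, at 21.1 and 16 CPM (ratio 0.759, 0.595 to 0.965), against 9.64 and 9.30 CPM in the Cxcl5 cluster and 4.88 and 6.38 CPM in the Efhd1 cluster. Mcl1 had ratios of 1.2 (1.13 to 1.26) in the Inmt cluster, 1.04 (0.970 to 1.11) in the Cxcl5 cluster and 1.24 (1.07 to 1.43) in the Efhd1 cluster.

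In MO/MP-like cells (1251 Ctrl and 979 dKO), where all 10 members had at least 100 UMIs, 0 of 10 changed by 1.5-fold, against 7.25% of 8516 genes. The median log2 ratio was 0.11 for the members and 0.00 for all genes. Bcl2l11 was nearest to the threshold, at 139 CPM in Ctrl and 206 CPM in dKO (ratio 1.48, 1.38 to 1.58). Of the survival genes, Bcl2l1 stood at 46.6 and 64.6 CPM (ratio 1.38, 1.23 to 1.56) and Mcl1 at 961 and 1269 CPM (ratio 1.32, 1.29 to 1.36). Pmaip1 stood at 45.8 and 61.7 CPM (ratio 1.35, 1.19 to 1.52). These 4 members, 2 of them survival genes and 2 of them BH3-only genes, were higher in dKO with intervals that exclude 1. The other 6 had intervals that include 1, with ratios of 0.995 for Bcl2a1b, 0.808 for Bcl2, 1.01 for Bax, 1.09 for Bak1, 1.07 for Bid and 1.03 for Bbc3.

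By role, the survival sum was 1403 and 1726 CPM (ratio 1.23, 1.2 to 1.26), the effector sum 276 and 283 CPM (1.03, 0.971 to 1.08) and the BH3-only sum 214 and 297 CPM (1.39, 1.32 to 1.47). A list of 12 dissociation and stress genes (Fos, Jun, Egr1, Atf3, heat shock genes and others), which are known to respond to tissue digestion, moved with these members and stood at 7394 and 9595 CPM (ratio 1.30, 1.29 to 1.31) in the same cells, against 0.924 in FAP-like cells. The part of stress in the MO/MP-like ratios was not tested. Marker lists of other cells differed as well, with neutrophil markers at 211 and 99.4 CPM, MuSC markers at 245 and 392 CPM, erythroid markers at 10.8 and 49.4 CPM and NK cell markers at 5.38 and 11.9 CPM, and their part was not tested either. In cells thinned to 2000 UMIs, 79.5% of Ctrl (77.0 to 81.8) and 86.3% of dKO MO/MP-like cells (83.8 to 88.5) had a UMI of Mcl1, and 25.0% (22.5 to 27.6) and 31.7% (28.7 to 34.9) had one of Bcl2l11, while the unthinned shares were 94.6% and 95.2%, and 53.6% and 58.0%.

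The higher Mcl1 was found in each of the 4 MO/MP-like clusters, with ratios from 1.29 to 1.37 and intervals above 1. Its level was highest in the cluster led by Slpi, Chil3 and Clec4e, monocyte-like by its Ly6c2, at 1270 CPM in Ctrl and 1739 CPM in dKO. Bcl2l11 rose in that cluster from 262 to 410 CPM (ratio 1.56, 1.39 to 1.76) and in the cluster led by Atp6v0d2, Spp1 and Rnf128 from 128 to 200 CPM (ratio 1.56, 1.39 to 1.74). It stood at 108 and 134 CPM (1.24, 1.06 to 1.43) in the cluster led by Apoe, Gpr34 and Tmem86a and at 94.3 and 121 CPM (1.29, 1.02 to 1.63) in the cluster led by Ear2, Dcstamp and Lyz1. Pmaip1 rose in the Apoe cluster from 49.8 to 75.2 CPM (1.51, 1.22 to 1.86) and stood at 94.3 and 75.9 CPM (0.804, 0.614 to 1.05) in the Ear2 cluster. Bcl2l1 had ratios of 1.40 to 1.46 in 3 of the clusters and 1.06 (0.599 to 1.88) in the Ear2 cluster. The share of all genes past 1.5-fold is not given for single clusters, so no change is called in them.

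**Figure D3:**
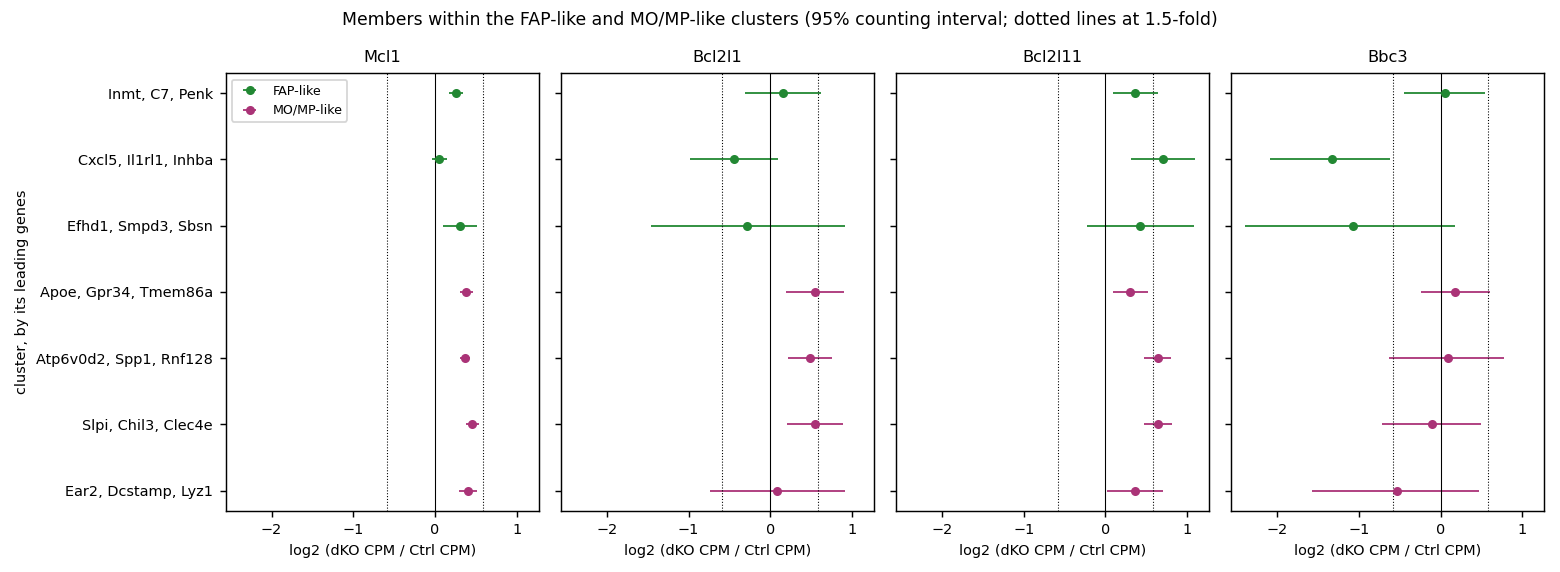
Log2 ratio of dKO to Ctrl CPM for Mcl1, Bcl2l1, Bcl2l11 and Bbc3 in the 3 FAP-like clusters (green) and 4 MO/MP-like clusters (purple), each named by its leading genes, with 95% counting intervals and dotted lines at 1.5-fold. Mcl1 lies to the right of 0 in each MO/MP-like cluster, and Bbc3 lies to the left in the Cxcl5 cluster (ratio 0.398) but not in the Inmt cluster (1.03).

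Bcl2a1b is 1 of several A1 copies on mouse chromosome 9, and its level in MO/MP-like cells differed by less than counting error between the libraries while those of other copies differed by more. Bcl2a1a rose from 20.9 to 39.2 CPM (ratio 1.88, 1.59 to 2.23), Bcl2a1d stood at 90.4 and 135 CPM (1.49, 1.37 to 1.62), and the sum of these with Bcl2a1b at 499 and 559 CPM (1.12, 1.08 to 1.17). The copies are near identical, which is why their sequences are shown: the coding sequences have 516 bases each, with 11 differing bases between Bcl2a1a and Bcl2a1b, 7 between Bcl2a1a and Bcl2a1d and 6 between Bcl2a1b and Bcl2a1d. The first 120 coding bases hold 7 of the 12 positions at which any copy differs, given in capitals, 5′ to 3′ on the coding strand.
Bcl2a1a: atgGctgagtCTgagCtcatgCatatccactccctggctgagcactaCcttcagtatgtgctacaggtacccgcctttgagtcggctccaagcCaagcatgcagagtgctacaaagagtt
Bcl2a1b: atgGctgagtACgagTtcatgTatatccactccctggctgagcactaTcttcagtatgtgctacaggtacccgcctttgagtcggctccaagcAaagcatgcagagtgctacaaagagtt
Bcl2a1d: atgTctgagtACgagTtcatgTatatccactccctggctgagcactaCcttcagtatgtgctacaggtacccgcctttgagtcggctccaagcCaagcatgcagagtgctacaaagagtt
These lie in the first coding exon at chr9:88957051-88957170 (plus strand), chr9:89199360-89199479 (plus) and chr9:88731600-88731719 (minus) of GRCm38. Of all 90-base windows of the Bcl2a1b transcript, 36.1% also occur exactly in another copy, against 47.0% for Bcl2a1a and 61.6% for Bcl2a1d. Reads from such windows cannot be assigned to 1 copy, and how the authors' counting treated them is not given in the sources used here, so the split between copies is uncertain and their sum is the safer value. In dendritic cell-like cells the sum was 776 and 1014 CPM (1.31, 1.19 to 1.44).

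**Figure D4:**
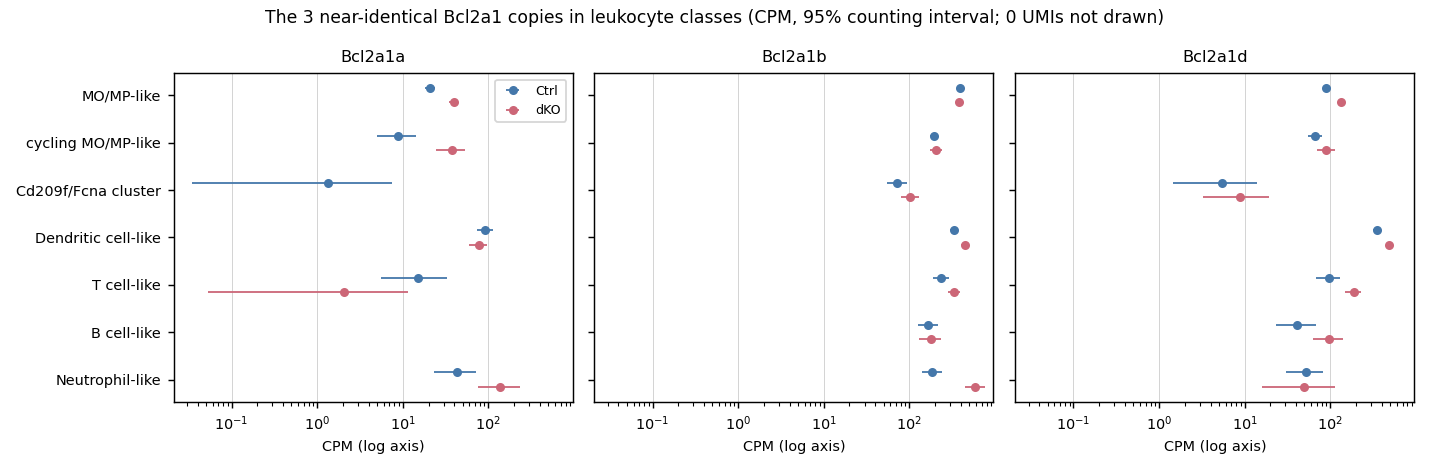
Level of Bcl2a1a, Bcl2a1b and Bcl2a1d in CPM (log axis) in 6 leukocyte groups and the Cd209f cluster, Ctrl in blue and dKO in red, with 95% counting intervals. In MO/MP-like cells Bcl2a1b has nearly equal levels in both libraries (387 and 385 CPM), whereas Bcl2a1a (20.9 and 39.2 CPM) and Bcl2a1d (90.4 and 135 CPM) are higher in dKO.

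MuSC-like cells, the only group that lost Yy1, were few in dKO (30 cells against 123), and 21.0% of the 4307 genes tested were past 1.5-fold. Of the 5 members with at least 100 UMIs, 1 changed. Bbc3 rose from 32.7 to 53.4 CPM on 81 and 41 UMIs (ratio 1.63, 1.09 to 2.41), but 24.4% of its dKO UMIs came from 1 cell, and the call ended with the mean of each cell's own CPM (ratio 1.12) and without integration of the libraries (log2 ratio 0.51 in place of 0.71). In cells thinned to 2000 UMIs too few had a Bbc3 UMI to show a direction. The share was 4.31% in Ctrl, and in dKO it was 0 of 30 cells, which allows up to 11.6%. Mcl1 stood at 230 and 155 CPM (ratio 0.675, 0.549 to 0.824), just short of the threshold, while its level in FAP-like and MO/MP-like cells was higher in dKO. In MuSC-like cells thinned to 2000 UMIs the ratio of Mcl1 was 0.988. Bax was at 257 and 287 CPM (1.11, 0.952 to 1.30), Bak1 at 37.6 and 46.9 CPM (1.249, 0.826 to 1.85) and Pmaip1 at 32.7 and 31.3 CPM (0.956, 0.580 to 1.52). Bid had 13 and 12 UMIs (ratio 2.98, 1.24 to 7.08) and was not called.

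The same cells differed in other ways that were not separated from these values. The stress list was lower in dKO (ratio 0.664, 0.640 to 0.688), MO/MP markers stood at 426 and 75.6 CPM, FAP markers at 860 and 417 CPM, myocyte markers at 2200 and 3424 CPM (ratio 1.56), the cell cycle list at 929 and 1263 CPM, and 72.9% of the dKO Myog UMIs came from 1 cell. The part of these in the MuSC-like ratios was not tested.

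A list of 56 other genes of the death pathways was counted in the same way, and differences between cell groups in these counts were not tested. In MuSC-like cells 15 of the 26 listed genes with at least 100 UMIs changed (57.7%, against 21.0% of all genes), 12 of them higher and 3 lower in dKO, and the median log2 ratio of the list was 0.21, against -0.01 for all genes. The minimum of 100 UMIs counts both libraries, so a gene near it can pass because it is high in dKO. Aifm1 (72 Ctrl and 44 dKO UMIs), Bnip3 (72 and 37), Trp53inp1 (73 and 34) and Zmat3 (75 and 43) lay near it. The share of changed genes and the split into higher and lower were not corrected for this. The genes named here in MuSC-like cells were chosen after their values were seen. Of 8 measured genes of the p53 arm, 6 were higher in dKO: Trp53 itself rose from 111 to 189 CPM (ratio 1.71, 1.39 to 2.10), Mdm2, the ubiquitin ligase that degrades p53, from 86.4 to 188 CPM (2.17, 1.75 to 2.69), and Cdkn1a, the cell cycle inhibitor p21, from 630 to 1039 CPM (1.65, 1.51 to 1.80). The others were Zmat3 (1.85), Phlda3 (1.55) and Trp53inp1, whose interval includes 1 (1.5, 0.970 to 2.29).

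Among the remaining listed genes, Aifm1, Xiap, Bnip3l, Bnip3, Bad and Bcl2l13 were higher in dKO MuSC-like cells by 1.57 to 1.97. Cflar, the inhibitor of caspase-8, fell from 95.7 to 60.0 CPM (0.626, 0.446 to 0.862) and Bok from 98.9 to 60.0 CPM (0.606, 0.432 to 0.833). With the cell of most UMIs left out of each library for each gene, all 12 higher and 3 lower genes were still past 1.5-fold, and with the mean of each cell's own CPM 11 and 2 were, the exceptions being Phlda3 at 1.27 and Bok at 1.01. In cells thinned to 2000 UMIs 11 of the 12 higher genes were still past it, Xiap (0.967) being the exception, but 0 of the 3 lower ones. At that depth Aifm1 had a UMI in 1.72% of 116 Ctrl and 6.67% of 30 dKO cells. The shares were 2.59% and 10% for Bnip3, 3.45% and 6.67% for Bad, and 4.31% and 16.7% for Bcl2l13. Those of Zmat3 were 6.90% and 10%, and those of Trp53inp1 6.90% and 13.3%. For these genes too few thinned cells had a UMI to show a direction.

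In FAP-like cells 1 of 45 listed genes changed (2.22%, against 5.7% of all genes), Zmat3, a p53 target, which fell from 17.5 to 11.1 CPM (ratio 0.631, 0.516 to 0.769). In MO/MP-like cells 5 of 44 did (11.4%, against 7.25% of all genes). Besides Bcl2a1a these were Cdkn1a, Fas, Cflar and Birc5. Cdkn1a rose from 358 to 607 CPM (1.69, 1.62 to 1.76). The death receptor gene Fas rose from 24.6 to 40 CPM (1.62, 1.38 to 1.91) and Cflar from 168 to 266 CPM (1.59, 1.49 to 1.69). Birc5, the inhibitor of apoptosis survivin, fell from 6.44 to 3.13 CPM (0.487, 0.297 to 0.771). Birc5 is also a gene of the cell cycle list, and the part of cycling cells in its ratio was not tested. Cflar and Zmat3 thus lay on opposite sides of 1 in MuSC-like cells and in the niche cells where they changed.

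**Figure D5:**
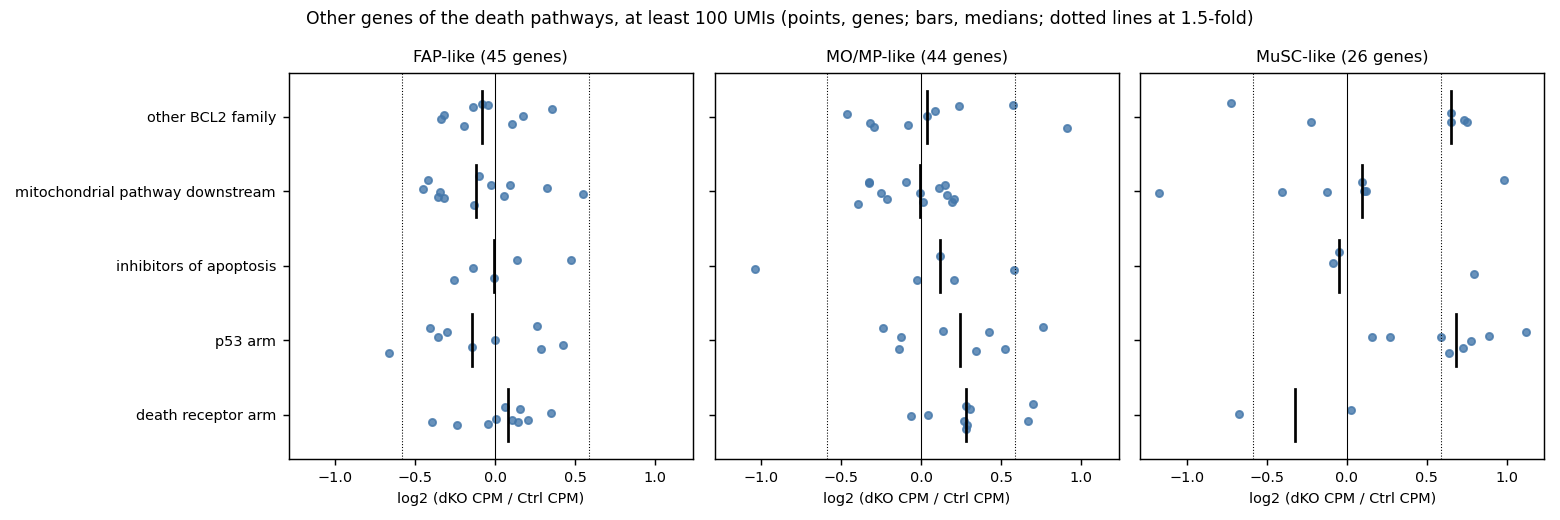
Log2 ratio of dKO to Ctrl CPM for the other genes of the death pathways with at least 100 UMIs in FAP-like, MO/MP-like and MuSC-like cells, by list, with each point a gene, bars at list medians and dotted lines at 1.5-fold. In MuSC-like cells 6 of 8 genes of the p53 arm lie past the right dotted line, in FAP-like cells 0 of 9 and in MO/MP-like cells 1 of 8.

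In EC-like cells (469 Ctrl and 181 dKO) 2 of 6 measured members changed, against 11.7% of 4770 genes. Bak1 fell from 41.9 to 18.2 CPM on 113 and 16 UMIs (ratio 0.434, 0.240 to 0.736), and Bbc3 stood at 31.9 and 20.5 CPM (ratio 0.642), with an interval of 0.363 to 1.08 that includes 1. Both calls ended when no doublets were removed (log2 ratios of -0.57 for Bak1 and -0.32 for Bbc3). The call of Bbc3 also ended in cells thinned to 2000 UMIs (log2 ratio 0.04), where Bak1 stood at -1.43. In the same cells the cell cycle list stood at 43.4 and 18.2 CPM, erythroid markers at 99.7 and 37.5 CPM, myocyte markers at 56.7 and 12.5 CPM, neutrophil markers at 40.03 and 10.2 CPM, MO/MP markers at 889 and 687 CPM and MuSC markers at 418 and 824 CPM, and their part in these ratios was not tested. Mcl1 was at 645 and 780 CPM (1.21, 1.11 to 1.32) and Bcl2l1 at 63.8 and 63.7 CPM (0.999, 0.725 to 1.36).

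Cycling groups had 1 call each. In cycling FAP-like cells (38 and 33), where 1 of 3 measured members changed against 17.1% of genes, Bak1 fell from 63.4 to 32.8 CPM (ratio 0.518, 0.343 to 0.770). The cell cycle list of these cells stood at 3246 and 2492 CPM, smooth muscle cell/pericyte markers at 635 and 262 CPM, MO/MP markers at 156 and 103 CPM and EC markers at 50.4 and 5.89 CPM, whose part was not tested. In cycling MO/MP-like cells (104 and 46), where 1 of 6 did against 12.4% of genes, Bcl2l11 rose from 81.8 to 127 CPM (ratio 1.56, 1.19 to 2.02), a call that ended without the cell of most UMIs in each library (log2 ratio 0.39 in place of 0.64) and in thinned cells (0.23). This group differed in makeup between the libraries, with neutrophil markers at 18229 CPM in Ctrl and 320 CPM in dKO (ratio 0.0175), B cell markers at 123 and 30.5 CPM and T cell markers at 214 and 448 CPM, and the part of this in the ratio of Bcl2l11, which was high in neutrophil-like cells, was not tested.

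In neutrophil-like cells (97 and 37, with median depths of 2293 and 1680 UMIs) 1 of 3 measured members changed, against 22.6% of 579 genes. Bcl2a1b rose from 186 to 591 CPM on 61 and 60 UMIs (ratio 3.18, 2.19 to 4.62). Its log2 ratio of 1.67 went from 1.46 to 2.58 over 9 alternatives, the highest in cells thinned to 2000 UMIs. Thinning left out cells below that depth, so that value rests on 53 Ctrl and 17 dKO cells. The sum of the A1 copies stood at 280 and 779 CPM (ratio 2.78, 2.03 to 3.79). Mcl1 stood at 1475 and 2188 CPM (1.48, 1.26 to 1.74), and Pmaip1 had 11 and 22 UMIs (ratio 6.47, 3.01 to 14.8), too few to be called. In these cells the 10 neutrophil markers had a summed level of 248589 and 161858 CPM (ratio 0.651), while the cell cycle list stood at 30.5 and 394 CPM and MO/MP markers at 4346 and 4583 CPM. Whether the 2 libraries hold neutrophils of the same maturity was not tested.

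No member changed in the remaining groups, of 2 measured members in tenocyte-like (6.02% of genes past 1.5-fold), 2 in smooth muscle cell/pericyte-like (24.3%), 2 in B cell-like (7.18%), 6 in dendritic cell-like (8.1%) and 5 in T cell-like cells (7.22%), and of 4 in the cluster led by Cd209f, Fcna and Cd163 (12.7%). In dendritic cell-like cells Bcl2a1b (1.34, 1.16 to 1.56) and Pmaip1 (1.33, 1.11 to 1.61) were higher in dKO with intervals above 1, and Mcl1 stood at 0.957 (0.868 to 1.06). In the Cd209f cluster, whose stress list had a ratio of 1.36, Mcl1 had a ratio of 1.21 (1.09 to 1.33) and Bcl2l11 one of 1.05 (0.743 to 1.49).

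Patterns across groups were compared with those of 11400 genes over the same 26 points, as Pearson r of log2(CPM + 10), given as a description. Bcl2a1b was most like Cd52 (0.981), Coro1a (0.975) and Ptprc (0.968), which mark leukocytes, and Bcl2l11 most like Fmnl1 (0.940), Irak2 (0.938) and Snx20 (0.935). Mcl1 was most like Sat1 (0.897), Pmaip1 like Fam49b (0.906), Bcl2l1 like N4bp1 (0.892), Bcl2 like Armcx5 (0.883), Bax like Mrpl34 (0.837), Bid like Morc3 (0.833) and Bak1 like Pomp (0.830). Bbc3 had the least likeness to any gene, with 0.758 for Pcgf5. Among the members, Bcl2l11 and Bcl2a1b were the closest pair (0.898), followed by Pmaip1 and Bcl2a1b (0.864) and Bcl2l11 and Mcl1 (0.833).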

How the data were processed

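Hind limb muscle cells of 1 Ctrl and 1 dKO library were analysed. The authors deposited raw UMI counts per gene and cell barcode, not normalized, and the genome build per the labels is mm10. The file headers name Cell Ranger 3.0.2 and the submitters' processing notes Cell Ranger 7.0.0. The tables list 0 mitochondrial genes, so no mitochondrial filter could act. They hold 4527 Ctrl and 3483 dKO barcodes, of which 4335 and 3329 had at least 500 genes and were used, while a filter of 200 genes and 1000 UMIs with the same doublet removal was tried as an alternative. Doublet scores were computed with Scrublet in scanpy 1.11.5 (30 principal components). Its own threshold called 7 and 14 cells and did not work, so 325 Ctrl and 250 dKO cells, the top 7.5% by score, were left out.

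Libraries were integrated with Seurat 5.3.0 (R 4.3.3) on 2000 variable genes and 40 dimensions and clustered at a resolution of 0.8. Clusters took the name of the marker list with most genes among their 10 leading genes and then most enriched markers (at least 2-fold over the median other cluster, in at least 10% of cells), with at least 3 enriched. A cluster with more leading genes of another list, or with at least 3 genes of a short list set after the clusters were seen (Sfrp5, Lypd2, Cldn1, Krt19, Wnt6, Stra6), stayed unnamed. The rule for cycling clusters (at least 5 enriched cell cycle genes, and a cell cycle gene among the leading 10) was also set then. A cluster of low depth for its library, with no gene of its own list among its leading genes, stayed unnamed as well.

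UMIs were summed per group and library (Python 3.11.15, numpy 2.4.6, scipy 1.17.1). Ratios are of CPM, with Clopper-Pearson intervals, which cover counting error only, and were tested on simulated data. With 1 library per group there was no test. All 10 members are named, and of the 56 other genes those past 1.5-fold in FAP-like and MO/MP-like cells, up to 5 at each end. Members and lists were chosen with earlier results of these data known. Alternatives were the cell filter, doublets, resolution, integration, scaling, thinning to 2000 UMIs (seed 1), the cell of most UMIs, the fold and the UMI minimum. Thinning left out cells with fewer than 2000 UMIs. Sequences are from GENCODE M21. The values of 1 listed gene are not reported here.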

Additional observations from a re-analysis of the deposited data

Results flagged for a closer look

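Barcodes with fewer than 500 genes enter no comparison above, and in the dKO library the members together stood at a higher level there than in the kept cells. In the 192 Ctrl barcodes the 10 members together came to 1256 CPM (1077 to 1456), against 1083 CPM in kept cells, and in the 154 dKO barcodes to 2592 CPM (2305 to 2905), against 1134 CPM. Mcl1 made up most of it, at 749 CPM (613 to 907) in the Ctrl and 1690 CPM (1460 to 1946) in the dKO barcodes, and Bcl2l11 stood at 107 and 307 CPM and Pmaip1 at 64.2 and 184 CPM. In Ctrl the interval of the sum overlaps that of the kept cells (1073 to 1093), and Bcl2a1b (64.2 against 142 CPM) and Bax (64.2 against 147 CPM) were lower there. Which cells these barcodes come from was not tested.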

How the results depend on the processing

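No paired analysis was possible because each genotype has 1 library. Values are log2 ratios of dKO to Ctrl unless named otherwise. Without the member of most UMIs, the FAP-like survival sum turned from 0.14 to -0.30 and the FAP-like BH3-only sum from 0.20 to -0.39, while the FAP-like effector sum went from 0.05 to -0.0594 and the MO/MP-like survival, effector and BH3-only sums from 0.30, 0.04 and 0.48 to 0.046, 0.12 and 0.30. In cells thinned to 2000 UMIs the FAP-like effector sum was -0.19, the MO/MP-like survival sum 0.35, the MO/MP-like BH3-only sum 0.34, and Bbc3 in FAP-like cells turned from -0.50 to 0.20. Scaling to the median gene ratio gave 0.20 for the FAP-like survival sum. The count of members past 1.5-fold in FAP-like cells went from 0 to 1 with the filter of 200 genes and 1000 UMIs (Bbc3), to 1 in thinned cells (Bcl2), and to 1 with a minimum of 20 UMIs or of 1 UMI in each library (Bcl2a1b). In MO/MP-like cells it went from 0 to 1 with that filter (Bcl2l11) and to 2 in thinned cells (Bcl2 and Bid). At a lower threshold, a log2 ratio of 0.32 either way, it was 3 in FAP-like cells (Bcl2, Bcl2l11 and Bbc3, against 21.4% of genes) and 4 in MO/MP-like cells (Bcl2l1, Mcl1, Bcl2l11 and Pmaip1, against 24.8%). Over the alternatives run, Mcl1 ranged from 0.37 to 0.41 and Bcl2l11 from 0.45 to 0.59 in MO/MP-like cells, and Bcl2l11 from 0.38 to 0.54 in FAP-like cells. Of 212 values of single members under alternatives, 199 stayed within the counting interval of the value reported. Adding the Cd209f cluster to the MO/MP-like cells was chosen after seeing the data. At a resolution of 1.2 the MuSC-like group also took in a sub-cluster of tenocytes, and cycling FAP-like cells gave a value under 5 alternatives only. At that resolution a cluster led by Cx3cr1, Pmaip1 and Gm1966 (98 Ctrl and 45 dKO cells) stayed unnamed. The cause of these shifts was not tested. Depth limits Bid, Pmaip1 in stromal cells and each member in MuSC-like and neutrophil-like dKO cells.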
